A study of Mus musculus with 4 samples.

Results

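The integrated stress response factors were 10 genes listed by symbol: the transcription factors Atf4, Atf5, Ddit3, Cebpb and Cebpg, the feedback genes Trib3 and Ppp1r15a, and the effectors Chac1, Sesn2 and Asns. The list leaves out the tRNA synthetase genes that ATF4 also controls. All 10 had an identifier among the 78334 in the counts table, and 9 passed the filter on low counts that left 11427 genes for testing. Cebpb did not pass it.

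The cells were wild-type mouse retinal ganglion cells, the neurons that send their axons through the optic nerve, from mice of both sexes aged 8 to 12 weeks. One group had received an AAV2 virus (adeno-associated virus serotype 2) carrying an anti-miR132-3p shRNA, and the other the same kind of virus with a scramble shRNA. In both groups the virus also expressed mCherry, 2 µl went into the vitreous of each eye of 8-week-old animals, and the optic nerve was crushed (ONC) 2 weeks later. Cells were collected 2 weeks after the crush, when 10 retinas per condition were pooled, panned with Thy1 and sorted for mCherry, with about 5000 cells per library. About 40% of ganglion cells take up the virus, and only mCherry-positive cells were kept. The promoter that drives each shRNA is not given in the sources used here, and no uninjured or uninjected group was analysed here.

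Polyadenylated RNA was counted per gene in 2 libraries per group, with 1732416 and 1731199 counts in the anti-miR132-3p libraries and 1845090 and 1846637 counts in the scramble libraries. The libraries of a group differed by about as much as the sampling noise of their counts, with no difference found beyond it (chi-square per degree of freedom 1.00, p = 0.49, for the anti-miR132-3p pair and 1.02, p = 0.095, for the scramble pair, against 4.01 to 4.03 across groups). They were treated as 1 sample, giving n = 1 per group, without an SD or a replicate check of any difference. A p-value therefore compares the reads of 4 libraries and not the conditions, and an interval covers counting error only.

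The integrated stress response is the pathway by which cells react to amino acid shortage, unfolded protein in the endoplasmic reticulum, double-stranded RNA or mitochondrial damage. Kinases phosphorylate the translation factor eIF2, which lowers protein synthesis as a whole while the mRNA of ATF4 is translated more. ATF4, with partners such as C/EBP-gamma and CHOP, then switches on genes of amino acid supply and of feedback. In ganglion cells ATF4 and CHOP are known as part of the response to axon injury, and loss of either is reported in mice to spare injured cells. ATF4 activity is set largely by translation, which counts of mRNA do not measure.

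The hairpin was aimed at miR-132-3p, whose mature sequence (RefSeq, GRCm38.p6) is shown with its seed, bases 2 to 8, in capitals. The anti-miR132-3p insert is the exact reverse complement of it, and the capitals mark the bases that pair with the seed. The scramble insert is shown for comparison. These are the agents that separate the groups.
mmu-miR-132-3p: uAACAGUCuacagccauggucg
anti-miR132-3p insert: cgaccatggctgtaGACTGTTa
scramble insert: tcgagggcgacttaaccttagg

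One member had a match to the seed in its annotated 3' UTR. The heptamer GACTGTT occurred once in the 3' UTR of Cebpg, which is 3965 bases long in the GENCODE M21 annotation, and not in those of the other members, which were between 80 and 1687 bases long. Among all genes with an annotated 3' UTR, 10.9% held the heptamer. The site is shown with 10 bases on each side and the heptamer in capitals. A match is only a run of letters and was not tested as a binding site.
Cebpg 3' UTR site: ggaagttgctGACTGTTcgggacagaa

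Of the 9 tested members, edgeR's quasi-likelihood test called 4 lower with the anti-miR132-3p shRNA (Ddit3, Asns, Cebpg and Atf4) and 1 higher (Sesn2) at a Benjamini-Hochberg adjusted p under 0.05. Over all 11427 tested genes 10.4% were called lower and 13.5% higher, and over the 4500 tested genes with a mean of at least 50 CPM, where reads allow more calls, 20.0% were called lower and 16.5% higher. CPM is the count relative to the library's total, scaled between libraries by TMM. The median log2 fold change of the 9 was -0.35, beside -0.0030 over all tested genes, and 7 of the 9 were below 0, as were 50.4% of all tested genes. In CPM, 6 of the 9 were lower in both anti-miR132-3p libraries than in either scramble library and 1 was higher, while 30.6% and 31.3% of all tested genes separated in these ways. By the rule for 1 sample a group, at least 1.5-fold, Sesn2 alone passed as higher and no member as lower, where 12.6% and 5.12% of tested genes did. In such bulk libraries fewer cells with a gene on and less of its RNA per cell cannot be told apart.

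**Figure D1:**
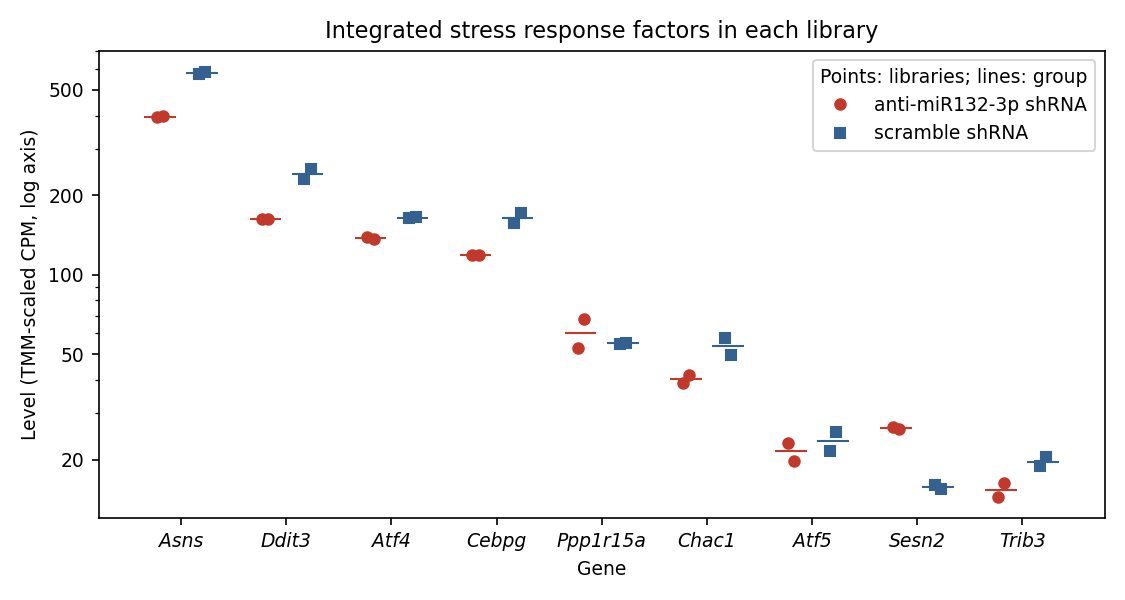
Level of the 9 tested members in each of the 4 libraries, in TMM-scaled CPM on a log axis; circles and squares are single libraries, horizontal lines the counts of a group summed and scaled. Asns, Ddit3, Atf4, Cebpg, Chac1 and Trib3 lie lower in both anti-miR132-3p libraries than in both scramble libraries, Sesn2 lies higher, and Ppp1r15a and Atf5 overlap.

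Atf4, the central transcription factor of the pathway, had 240 and 236 counts in the anti-miR132-3p libraries and 295 and 299 in the scramble libraries. The libraries of the groups did not overlap. Scaled, this was 138 CPM with the anti-miR132-3p shRNA against 165 CPM with the scramble shRNA, or 1.19-fold lower (exact 95% interval 1.05 to 1.35), the smallest change among the 5 members called (adjusted p = 0.0274).

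Ddit3 encodes CHOP, a C/EBP-family factor that ATF4 induces and that is known for promoting cell death under lasting stress. Its counts were 279 and 280 in the anti-miR132-3p libraries and 414 and 453 in the scramble libraries, with no overlap. The level was 162 CPM with the anti-miR132-3p shRNA against 240 CPM with the scramble shRNA, 1.48-fold lower (1.33 to 1.65; adjusted p = 3.4e-05). The count of Ddit3 per count of Atf4, which needs no scaling and was not tested, was 1.16 and 1.19 in the anti-miR132-3p libraries and 1.40 and 1.52 in the scramble libraries. Such a ratio does not remove trends with GC content and length. After a correction for both, given below, Ddit3 fell less than Atf4 (log2 fold changes -0.29 and -0.36). In the annotation, 68 of the 1713 exon bases of Ddit3 overlap Mars on the opposite strand, a gene with 203 and 173 counts in anti-miR132-3p libraries and 178 and 212 in scramble libraries. Whether counting used strand is not given, so reads there cannot be told apart. A second Ddit3 identifier in the annotation had 0 counts in all 4 libraries.

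Cebpg, which encodes C/EBP-gamma, a dimer partner of ATF4, had 204 and 205 counts in the anti-miR132-3p libraries and 283 and 309 in the scramble libraries. These do not overlap, and the level of 119 CPM with the anti-miR132-3p shRNA against 164 CPM with the scramble shRNA was 1.38-fold lower (1.22 to 1.57; adjusted p = 0.00083). Cebpg is the member with a miR-132-3p heptamer in its 3' UTR, and whether that heptamer bears on its level was not tested. Per count of Atf4 it had 0.85 and 0.869 counts in the anti-miR132-3p libraries and 0.959 and 1.03 in the scramble libraries.

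The other factors gave no call. Atf5, a factor related to ATF4 whose translation is likewise raised under stress, had 40 and 34 counts in anti-miR132-3p libraries and 39 and 46 in scramble libraries, and the libraries overlapped. Its fold was 0.912 (0.658 to 1.26; adjusted p = 0.71), an interval that holds changes of both signs. In the annotation 82 of its 1993 exon bases overlap Nup62 on the opposite strand, a gene with 58 and 64 counts in anti-miR132-3p libraries and 60 and 72 in scramble libraries. Cebpb, which encodes C/EBP-beta, had 0 and 0 counts in the anti-miR132-3p libraries and 2 and 1 with the scramble shRNA. Both groups lie at or under 3 counts, so no fold is given. A count of 3 in a library corresponds to 1.66 to 1.74 CPM, and Cebpb was below that level in all 4 libraries. In the annotation 312 of the 1504 exon bases of Cebpb overlap Tmem189 on the opposite strand, a gene with 3 to 8 counts in each library.

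Among the effectors, Asns had the most reads and fell. Asns makes asparagine and is a standard readout of ATF4. It had 678 and 688 counts in the anti-miR132-3p libraries and 1032 and 1056 with the scramble shRNA, with a wide gap between the groups. The level was 396 CPM with the anti-miR132-3p shRNA against 578 CPM with the scramble shRNA, 1.46-fold lower (1.36 to 1.56; adjusted p = 2.9e-07). Per count of Atf4 there were 2.83 and 2.92 counts of Asns in the anti-miR132-3p libraries and 3.50 and 3.53 in the scramble libraries.

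Chac1, an enzyme that degrades glutathione, had 67 and 72 counts in the anti-miR132-3p libraries and 104 and 90 with the scramble shRNA. The libraries did not overlap, and the fold of 0.750 (0.599 to 0.938) was close to that of Cebpg, but at this depth Chac1 missed the threshold (adjusted p = 0.058).

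Sesn2 moved the other way. It encodes sestrin 2, which restrains mTORC1, the growth kinase complex, when leucine is short, and it is also a known p53 target. It had 46 and 45 counts in the anti-miR132-3p libraries and 29 and 28 with the scramble shRNA, with no overlap. The level was 26.4 CPM with the anti-miR132-3p shRNA against 15.8 CPM with the scramble shRNA, 1.67-fold higher (1.19 to 2.37; adjusted p = 0.0241). Per count of Atf4 there were 0.192 and 0.191 counts of Sesn2 in the anti-miR132-3p libraries, against 0.0983 and 0.0936 in the scramble libraries.

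The feedback genes were not called. Trib3, a pseudokinase that CHOP and ATF4 induce and that restrains them, had 25 and 28 counts in the anti-miR132-3p libraries and 34 and 37 with the scramble shRNA, a fold of 0.782 (0.537 to 1.13; adjusted p = 0.31). Its libraries separated, but the interval includes no change. Ppp1r15a, which encodes GADD34, the subunit that directs a phosphatase to eIF2, had 91 and 117 counts in anti-miR132-3p libraries and 99 and 100 in scramble libraries. The scramble values lie between the anti-miR132-3p values, and the fold was 1.09 (0.897 to 1.34; adjusted p = 0.56). Per count of Ddit3, Ppp1r15a stood at 0.326 and 0.418 in the anti-miR132-3p libraries and 0.239 and 0.221 in the scramble libraries.

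**Figure D2:**
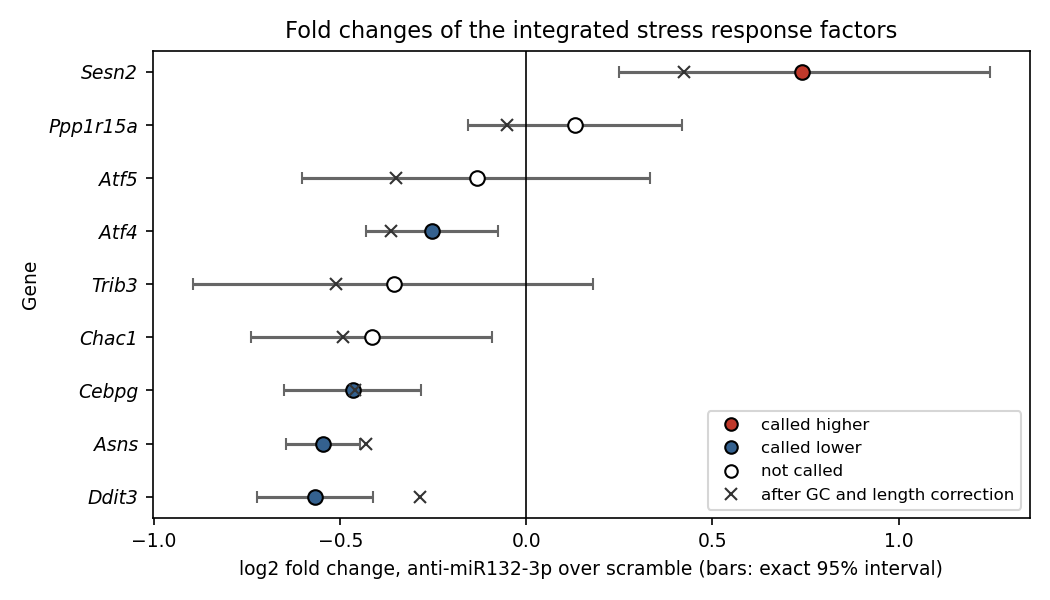
log2 fold change of summed counts, anti-miR132-3p over scramble, for the 9 tested members, with exact 95% intervals for counting error; fill gives edgeR's call and crosses the log2 fold change after a correction for GC content and length. Ddit3, Asns, Cebpg, Atf4 and Chac1, the last not called, lie below 0 with intervals that exclude it, and Sesn2 lies above. The crosses for Sesn2, Asns and Ddit3 lie nearer 0 than the points. Those for Atf4, Atf5, Trib3 and Chac1 lie farther below 0, and that for Ppp1r15a lies on the other side of 0.

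These calls rest on a spread measured between libraries of 1 sample. With either scramble library left out, edgeR's quasi-likelihood test called none of the members and no gene at all, with 2756 genes (without scramble replicate 1) and 2642 genes (without scramble replicate 2) at an unadjusted p under 0.05, and the 5 called members had adjusted p between 0.173 and 0.190. Without anti-miR132-3p replicate 1 or 2, Asns (adjusted p = 0.0101 and 0.00985) and Ddit3 (0.0318 and 0.0308) kept their calls, while Cebpg (0.0624 and 0.0606), Atf4 (0.130 and 0.151) and Sesn2 (0.130 and 0.120) lost them. DESeq2, fitted to all 4 libraries, called Ddit3, Asns and Cebpg lower and did not call Atf4 (adjusted p = 0.357) or Sesn2 (0.313). Over 18 other settings, Asns and Ddit3 were called in 12, Cebpg in 10, Atf4 in 8, Sesn2 in 7 and Chac1 in 5. The lowest adjusted p there was 1.5e-26 for Asns, 6.3e-12 for Ddit3, 5.4e-06 for Cebpg, 0.00042 for Atf4, 0.0115 for Sesn2 and 0.0118 for Chac1, and the highest was 0.9999 for each.

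Genes of higher GC content tended to higher log2 fold changes (Spearman correlation 0.25), as did genes with longer exons (Spearman correlation 0.23), a description over tested genes that share the same 4 libraries. Median GC content was 48.7% and median exon length 4601 bases over tested genes, whereas the tested members ranged from 43.3% (Cebpg) to 61.7% (Atf5) and from 1637 bases (Chac1) to 5621 bases (Cebpg). After a correction for both, 5 members were called lower and 0 higher, where 12.3% and 9.19% of all tested genes were called in these directions. Chac1 passed (log2 fold change -0.49, adjusted p = 0.0212). Ddit3 moved from -0.57 to -0.29 and Atf4 from -0.25 to -0.36, so Atf4 no longer had the smallest change among the members called. Sesn2 moved from 0.74 to 0.42 and was not called (adjusted p = 0.213). Ppp1r15a turned from 0.13 to -0.05, without a call either way.

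**Figure D3:**
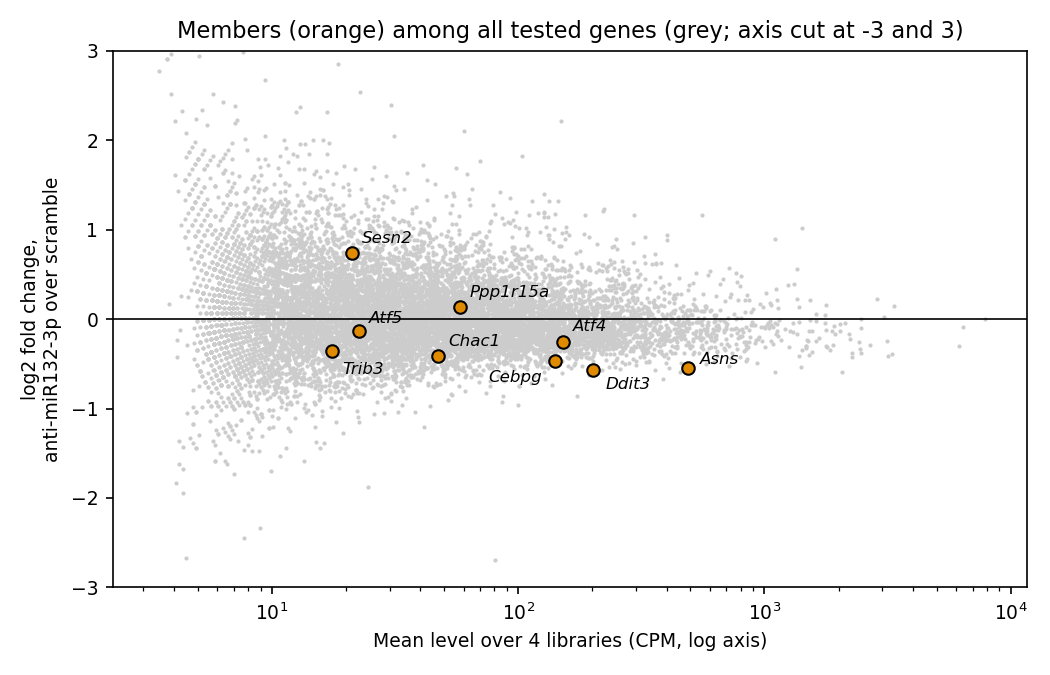
log2 fold change against mean level (CPM, log axis) for all tested genes in grey and the 9 tested members in orange. Asns, Ddit3 and Cebpg lie toward the lower edge of genes with similar levels, and Sesn2 lies in the upper part of a wide spread at low counts.

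Levels can be compared between genes only per length. In CPM per kilobase of exon, Asns stood highest in both groups, at 145 with the anti-miR132-3p shRNA and 212 with the scramble shRNA, and Ddit3 came next at 94.7 with the anti-miR132-3p shRNA and 140 with the scramble shRNA. Atf4 followed at 58.6 with the anti-miR132-3p shRNA and 69.8 with the scramble shRNA, so CHOP mRNA exceeded ATF4 mRNA per length in each group. Below these, with the anti-miR132-3p shRNA, came Chac1 at 24.6, Cebpg at 21.1, Ppp1r15a at 20.5 and Atf5 at 10.8. With the scramble shRNA these stood at 32.8 for Chac1, 29.2 for Cebpg, 18.8 for Ppp1r15a and 11.8 for Atf5. The interval of Atf5 overlaps that of Trib3 in each group and that of Sesn2 with the anti-miR132-3p shRNA. The counting intervals of Chac1 and Cebpg overlap in each group, as do those of Cebpg and Ppp1r15a with the anti-miR132-3p shRNA but not with the scramble shRNA. With the anti-miR132-3p shRNA, Sesn2 at 7.60 (6.12 to 9.33) and Trib3 at 7.24 (5.42 to 9.46) had overlapping intervals. With the scramble shRNA, Sesn2 at 4.54 (3.44 to 5.89) lay below Trib3 at 9.26 (7.23 to 11.7), with separate intervals.

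Sequence near the start sites was searched for motifs of the pathway in windows from 250 bases before to 50 bases after the annotated start (RefSeq, GRCm38.p6), which were at hand for all 10 members. The core of the C/EBP-ATF response element, TGATGNAA on either strand, was found in the windows of 3 members, Asns, Chac1 and Trib3, and in 3.97% of 32851 windows of all genes. The cyclic AMP response element, TGACGTCA, was found for Ppp1r15a and in 1.79% of all windows. The ER stress response element, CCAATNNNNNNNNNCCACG, was found for no member and in 0.119% of all windows. No motif overlapped another. The 3 windows with the C/EBP-ATF core are shown 5' to 3' on the strand of the gene, with the core in capitals, because all 3 genes are textbook ATF4 targets.
Asns, chr6:7693160-7693459, minus strand: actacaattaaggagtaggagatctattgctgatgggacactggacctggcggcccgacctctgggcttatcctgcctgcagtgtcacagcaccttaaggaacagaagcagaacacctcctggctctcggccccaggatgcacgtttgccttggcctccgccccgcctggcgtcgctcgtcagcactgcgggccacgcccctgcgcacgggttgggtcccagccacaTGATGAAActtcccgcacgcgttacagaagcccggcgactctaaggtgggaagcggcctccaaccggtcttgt
Chac1, chr2:119350992-119351291, plus strand: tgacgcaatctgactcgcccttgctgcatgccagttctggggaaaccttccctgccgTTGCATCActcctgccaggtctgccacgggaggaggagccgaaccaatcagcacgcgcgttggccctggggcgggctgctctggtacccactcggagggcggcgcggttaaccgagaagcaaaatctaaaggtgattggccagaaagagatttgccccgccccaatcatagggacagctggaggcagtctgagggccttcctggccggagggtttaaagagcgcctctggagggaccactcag
Trib3, chr2:152344011-152344310, minus strand: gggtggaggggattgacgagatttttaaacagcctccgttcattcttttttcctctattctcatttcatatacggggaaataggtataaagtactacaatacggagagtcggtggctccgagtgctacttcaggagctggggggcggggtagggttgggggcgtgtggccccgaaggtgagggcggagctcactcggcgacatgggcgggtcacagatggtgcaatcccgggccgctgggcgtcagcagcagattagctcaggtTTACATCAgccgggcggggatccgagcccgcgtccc

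The core lies 23 bases before the start of Asns and 193 before that of Chac1, and begins at base 15 after the start of Trib3. All 3 genes had log2 fold changes below 0, at -0.55, -0.41 and -0.35, and only Asns was called. Of the tested members without the core in the window, Atf4, Atf5, Ddit3 and Cebpg were also below 0, and Ppp1r15a and Sesn2 were above. In the pathway lists that follow, genes with the core lay on both sides. Slc1a4 was called higher, and Got1 and Herpud1 lower. Without a call, Eif2s3x, Pck2 and Vldlr were above 0, and Pycr1, Slc7a11, Nupr1 and Atf3 below. Fgf21 and Jdp2 were not tested for a change. Whether the core goes with a direction was not tested.

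The start of the pathway was read from 25 genes of eIF2 kinases, eIF2 and its exchange factor eIF2B, phosphatase subunits and related factors, all tested. The calls were 2 higher and 5 lower, and the median log2 fold change was -0.16. For this list and those that follow, the shares over all tested genes are 13.5% called higher and 10.4% lower, or 16.5% and 20.0% among genes of at least 50 CPM. All 5 called lower here had a mean of at least 50 CPM. The list also holds genes below that level, such as Eif2ak3 at 16.5 CPM. The 5 of 25 can therefore not be set against the share among deeper genes. The 2 that rose were kinases. Eif2ak4, which encodes GCN2, the sensor of amino acid shortage, had 68 and 69 counts in the anti-miR132-3p libraries and 35 and 42 with the scramble shRNA, 1.86-fold higher (1.40 to 2.50; adjusted p = 0.0028). Eif2ak2, which encodes PKR, the sensor of double-stranded RNA and itself an interferon-induced gene, had 21 and 20 counts in anti-miR132-3p libraries and 12 and 6 in scramble libraries, 2.39-fold higher (1.34 to 4.41; adjusted p = 0.0221). The other kinases were not called: Eif2ak3 (PERK, the sensor in the endoplasmic reticulum) had 27 and 24 counts in anti-miR132-3p libraries and 29 and 37 in scramble libraries, and Eif2ak1 (HRI, the heme sensor) had 59 and 89 in anti-miR132-3p libraries and 64 and 63 in scramble libraries.

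Eif2s1, which encodes the phosphorylated subunit of eIF2, fell to 101 CPM with the anti-miR132-3p shRNA, against 128 CPM with the scramble shRNA, 1.27-fold lower (1.10 to 1.47; adjusted p = 0.0170). Eif2b1, an eIF2B subunit, was 1.27-fold lower (1.05 to 1.52) and close to the threshold (adjusted p = 0.0495, and 0.117 after the GC and length correction). The other 3 that fell were the phosphatase catalytic subunits Ppp1ca and Ppp1cb and Impact, whose product binds the GCN2 activator GCN1.

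Among 24 genes of amino acid and one-carbon metabolism known as ATF4 targets, 23 were tested. The calls were 2 higher and 7 lower, and the median log2 fold change was -0.08. Slc7a3, a transporter of cationic amino acids, was lowest, with 93 and 91 counts in the anti-miR132-3p libraries and 178 and 165 with the scramble shRNA, 1.78-fold lower (1.48 to 2.14; adjusted p = 8.9e-05). All 3 enzymes of the phosphorylated serine pathway were called lower. Psat1 had 156 and 157 counts in anti-miR132-3p libraries and 272 and 239 in scramble libraries, 1.56-fold lower (1.35 to 1.80; adjusted p = 0.00019), Phgdh, the first step, was 1.40-fold lower (1.19 to 1.66; adjusted p = 0.0051), and Psph, the last, was 1.43-fold lower (1.11 to 1.85; adjusted p = 0.0439). Phgdh and Psph were picked out after their values were seen. Mthfd2, Got1 and Slc3a2 were the others called lower.

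On the higher side stood 2 transporters. Slc6a9, a glycine transporter that is also an amacrine cell marker, had 90 and 71 counts in the anti-miR132-3p libraries and 30 and 32 with the scramble shRNA, 2.72-fold higher (2.02 to 3.71; adjusted p = 8.5e-05). Slc1a4, a carrier of neutral amino acids, had 80 and 56 counts in anti-miR132-3p libraries and 46 and 33 in scramble libraries, 1.80-fold higher (1.36 to 2.41; adjusted p = 0.0119). Other enzymes of the list gave no call, among them Pycr1 (adjusted p = 0.086), Aldh18a1 (adjusted p = 0.61), Cth (adjusted p = 0.90), Gpt2 (adjusted p = 0.83) and Shmt2 (adjusted p = 0.72), and Cbs was not tested.

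Other target genes of ATF4 and CHOP numbered 25, of which 18 were tested. edgeR's quasi-likelihood test called 4 lower and 0 higher (1 higher at an unadjusted p under 0.05, and 0 by DESeq2, edgeR's likelihood ratio test and limma-voom), with a median log2 fold change of -0.23. Herpud1, which serves the removal of misfolded proteins from the endoplasmic reticulum, was at 285 CPM with the anti-miR132-3p shRNA against 396 CPM with the scramble shRNA, 1.39-fold lower (1.28 to 1.51; adjusted p = 2.7e-05). Map1lc3b, an autophagosome protein gene, was 1.36-fold lower (1.29 to 1.43; adjusted p = 7.8e-07), and Sqstm1 and Cdkn1a were the others. Of this list 7 genes had too few counts to be tested. Bbc3, which encodes the cell death protein PUMA, had 11 and 6 counts in anti-miR132-3p libraries and 3 and 2 in scramble libraries, a fold of 3.56 (1.26 to 12.3). Gdf15, a secreted stress factor, had 5 and 3 counts in anti-miR132-3p libraries and 8 and 15 in scramble libraries, 2.75-fold lower (1.19 to 7.10). Txnip had a fold of 0.678 (0.287 to 1.53), and its libraries overlapped. Fgf21, Tnfrsf10b, Lamp3 and Car6 lay at or under 3 counts in both groups, so no fold is given.

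The leucine-zipper factors that can pair with ATF4, CHOP or C/EBP proteins had calls on the higher side only. Of 25 genes 17 were tested. These include Cebpz, which is not a leucine-zipper gene and was not called (log2 fold change -0.17). edgeR's quasi-likelihood test gave 7 higher and 0 lower (1 lower at an unadjusted p under 0.05, and 0 by DESeq2, edgeR's likelihood ratio test and limma-voom), and the median log2 fold change was 0.12. Junb, an AP-1 subunit, had 86 and 91 counts in the anti-miR132-3p libraries and 11 and 24 in the scramble libraries, 5.30-fold higher (3.67 to 7.84; adjusted p = 3.1e-06). Mafg, a small Maf protein gene, had 213 and 218 counts in anti-miR132-3p libraries and 110 and 104 in scramble libraries, 2.11-fold higher (1.79 to 2.50; adjusted p = 1.8e-06). Nfe2l1, Fos, Jun, Maf and Atf2 were the others called higher. Atf3, an injury-induced factor downstream of ATF4, was not called, with 509 and 537 counts in anti-miR132-3p libraries and 599 and 594 in scramble libraries (fold 0.918, 0.844 to 0.998; adjusted p = 0.12). No test of the difference between this list and the members was run.

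The other branches of the response to unfolded protein were read from 18 genes, of which 17 were tested. The calls were 2 higher and 6 lower, and the median log2 fold change was -0.22. Hspa5, the gene of the chaperone BiP, was at 1142 CPM with the anti-miR132-3p shRNA against 1660 CPM with the scramble shRNA, 1.45-fold lower (1.40 to 1.51; adjusted p = 1.6e-08). Xbp1, the factor activated by the sensor IRE1, was 1.39-fold lower (1.28 to 1.51; adjusted p = 2.7e-05). Sel1l and Syvn1, partners in the degradation of misfolded proteins, were called higher, by 1.46-fold (1.31 to 1.63; adjusted p = 0.00054) and 2.49-fold (1.52 to 4.19; adjusted p = 0.0072). Dnajb9, Edem1, Pdia6 and Canx were the others called lower.

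After the GC and length correction the medians of the 5 lists were -0.22 for the eIF2 machinery, -0.17 for amino acid genes, -0.14 for other targets, 0.23 for leucine-zipper partners and -0.21 for the other ER stress branches. No list median changed sign. Besides Eif2b1, the calls of Maf (adjusted p = 0.071) and Dnajb9 (adjusted p = 0.055) were lost in that fit. It added lower calls for Eif2s2 (adjusted p = 0.0439), Eif2b2 (0.0416), Denr (0.0140) and Pycr1 (0.0244). Of the 25 eIF2 machinery genes, 7 were then called lower and 2 higher, where 12.3% and 9.19% of all tested genes were.

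**Figure D4:**
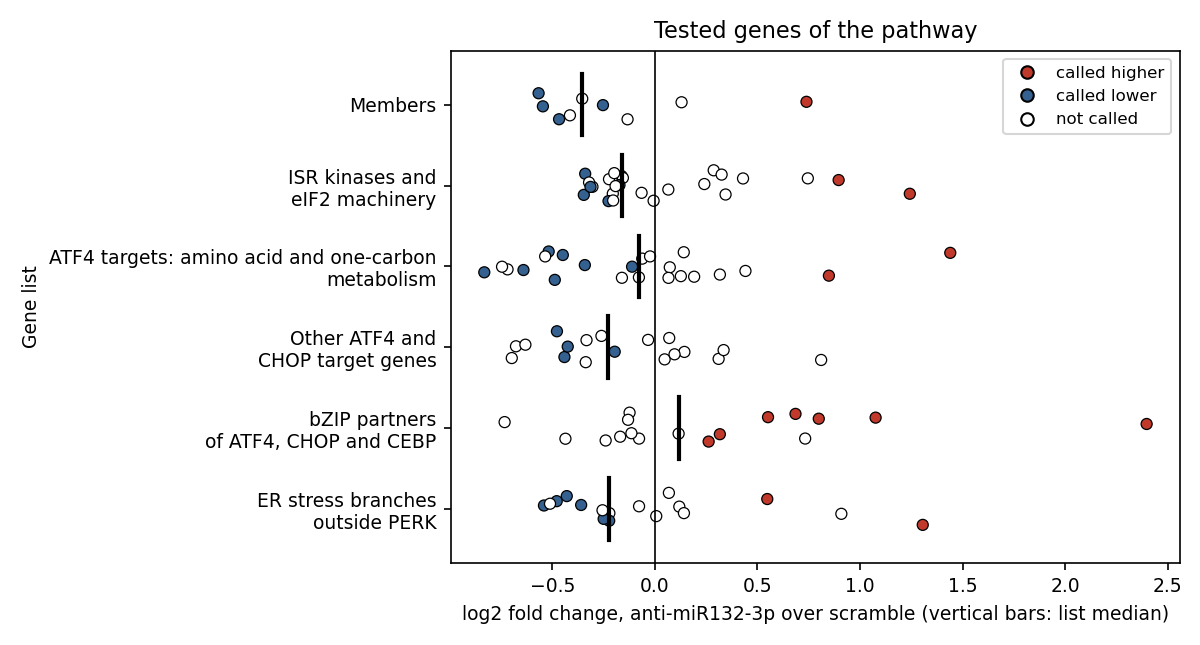
log2 fold change, anti-miR132-3p over scramble, of the tested genes of the members and of 5 lists of the same pathway; each point is a gene, filled by edgeR's call, and the black bar is the list median. Medians lie below 0 for the members and for 4 lists, and above 0 for the leucine-zipper partners.

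The labelled cell type was checked against its markers. All 13 ganglion cell markers had counts, with summed levels of 2347 to 2391 CPM in the anti-miR132-3p libraries and 2493 to 2560 CPM in the scramble libraries. Nefl and Stmn2 were the largest parts of that sum, at a mean of 628 and 625 CPM. Pou4f2 had only 3 and 4 counts in anti-miR132-3p libraries and 5 and 3 in scramble libraries, too few to test. The ganglion cell markers moved apart. edgeR called Pou4f1 (fold 0.681), Nefh (fold 0.743) and Stmn2 (fold 0.720) lower. Thy1 (fold 1.47), the panning antigen, and Nefm (fold 1.30) were called higher, the last not after the GC and length correction. Of 9 amacrine markers 6 had counts, at 2736 to 2790 CPM in anti-miR132-3p libraries and 2613 to 2666 CPM in scramble libraries, with Gad1, Slc32a1 and Tfap2b at 0 in every library. Pax6, not called, made up most of that sum, at 1609 CPM with the anti-miR132-3p shRNA and 1634 CPM with the scramble shRNA. Gad2 (fold 1.38), Slc6a9 (fold 2.72) and Tfap2a (fold 1.23) were called higher, and Calb2 (fold 0.890) lower. After the GC and length correction Tfap2a lost its call and Pax6 was called lower (log2 fold change -0.19). Of 8 rod markers 6 had counts, at 13.9 to 16.8 CPM in anti-miR132-3p libraries and 80.2 to 88.2 CPM in scramble libraries, with Gnat1 and Prph2 at 0. Sag, Pdc and Pde6b were called lower. Sag had 1 and 1 counts in anti-miR132-3p libraries and 70 and 61 in scramble libraries, and Pdc 3 and 0 against 31 and 30. Pde6b, with 23 and 20 against 43 and 36, made up most of the sum in anti-miR132-3p libraries. All 9 Müller glia markers had counts, at 2335 to 2347 CPM in anti-miR132-3p libraries and 1783 to 1785 CPM in scramble libraries. Dkk3 made up most of that sum and of its difference, at 1618 CPM with the anti-miR132-3p shRNA and 1096 CPM with the scramble shRNA. Apoe (fold 3.31) was also called higher, while Rlbp1 (fold 0.619), Glul (fold 0.933) and Clu (fold 0.990) were not called and Aqp4 had too few counts to test. Of the microglia and leukocyte markers, 11 of 13 had counts, at 24.9 to 26.7 CPM in anti-miR132-3p libraries and 9.988 to 16.05 CPM in scramble libraries, with Itgam and Trem2 at 0. Cd68 was called lower, with 10 and 6 counts in anti-miR132-3p libraries and 15 and 27 in scramble libraries. It made up most of the 18 and 29 counts summed in the scramble libraries. The others had too few counts to test. C1qb had 10 and 7 counts in anti-miR132-3p libraries and 0 and 0 in scramble libraries. Summed per group, anti-miR132-3p against scramble, C1qc had 13 against 1, Csf1r 13 against 2 and Ptprc 8 against 0. P2ry12 had 7 against 1, Cx3cr1 6 against 0, and C1qa and Tmem119 4 against 0. Tyrobp had 1 against 0 and Aif1 0 against 1. The part of these shifts in the changes of the stress response genes was not tested.

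**Figure D5:**
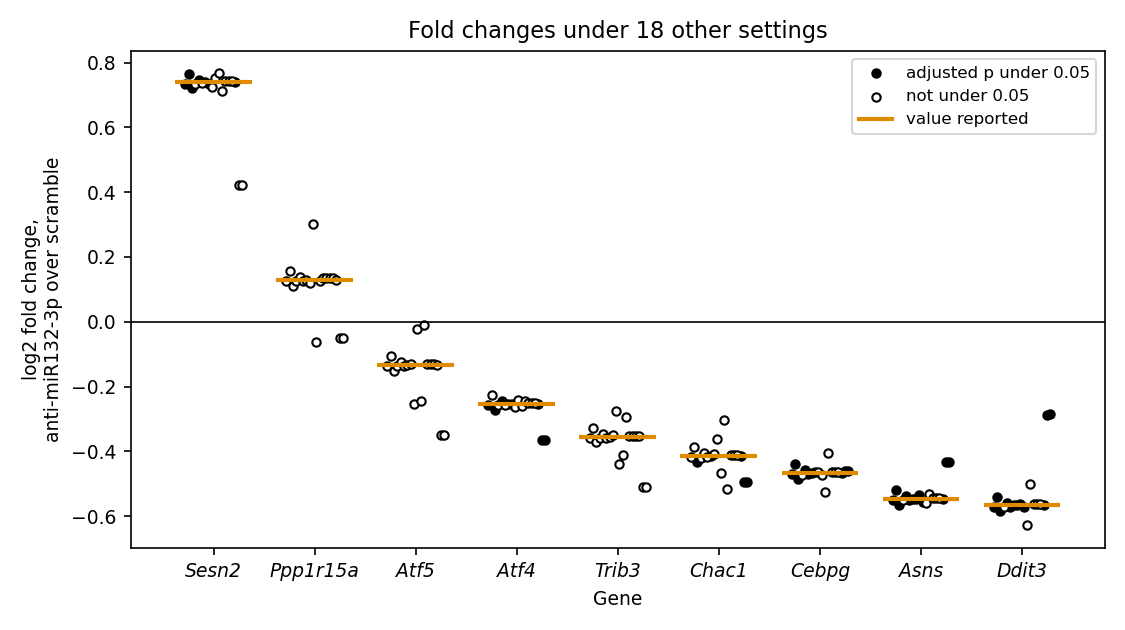
log2 fold change, anti-miR132-3p over scramble, of each tested member under 18 other settings of scaling, filter, test, left-out library and correction; filled points have an adjusted p under 0.05 and orange lines mark the values reported. Ppp1r15a is the member whose sign changes; the other 8 stay on 1 side of 0 at all 18 settings.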

How the data were processed

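The authors deposited whole-number counts per gene for 4 libraries (78334 versioned Ensembl identifiers). Cuffdiff, Cuffnorm, Cufflinks, HISAT2 2.2.1, SAMtools 1.10 and Trimmomatic 0.39 are named in the submitters' processing notes, with the build GRCm39. Which program counted reads, on which annotation and with what strand setting, was not given in the sources used here. The columns named mCherry were taken as scramble by exclusion because mCherry is in both vectors, so all directions rest on that.

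Gene names were found for 51486 identifiers in GENCODE M21 (GRCm38), and unnamed ones held 0.433% to 0.437% of counts. Exon lengths, GC content, overlaps and 3' UTRs come from M21, and no coordinates are joined between builds. The count tests used edgeR 4.0.16 under R 4.3.3 (filterByExpr, TMM, glmQLFit with legacy set to FALSE, glmQLFTest), with DESeq2 1.42.0 and limma 3.58.1 as alternatives. The test was run on simulated counts that held counting noise only, so that run does not bear on variation between samples. Tested genes held 98.6% of counts. Folds are ratios of TMM-scaled summed counts with exact (Clopper-Pearson) 95% intervals. Intervals of levels per kilobase are exact Poisson. Intervals and the 3-count floor cover counting error only.

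Members and lists were chosen with earlier results of these data known. Named genes were all members and, per list, the 2 highest and 2 lowest called genes with a mean of at least 5 CPM. Genes named beyond that rule were chosen after their values were seen. 2 marker genes are not reported here. The labels do not say that the libraries come from separate animals. Alternatives changed scaling, filter, test, libraries, replicate block, and GC and length (splines with 4 degrees of freedom).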

Additional observations from a re-analysis of the deposited data

How the results depend on the processing

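None of the 18 other settings turned the sign of the members' median log2 fold change, which ran from -0.44 to -0.27 when 1 library was left out and did not leave that range otherwise. Leaving out 1 library gave 0 to 427 genes called higher, 0 to 218 lower, 0 to 0 members higher, 0 to 2 members lower, 0 to 1 eIF2 machinery genes, 0 to 3 amino acid genes, 0 to 3 other ATF4 and CHOP targets, 0 to 5 leucine-zipper partners, 0 to 4 genes of other ER stress branches, and 1 to 2 members of at least 1.5-fold. Those fits had 1 residual degree of freedom in place of 2 and took the remaining library of a group to be as variable as the other group's.

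With no low-count filter, 1 gene was called higher and 2 lower, with 0 members in either direction and 0 genes of each of the 5 lists. edgeR's prior degrees of freedom were 1.16 there, against 14.1 in the reported fit. DESeq2 called 481 genes higher and 274 lower, 0 members higher, 1 eIF2 machinery gene, 4 amino acid genes and 5 genes of other ER stress branches. With each pair summed and an assumed coefficient of variation of 0.1, 470 genes were higher and 56 lower, with 0 members, 1 eIF2 machinery gene, 2 amino acid genes, 0 other targets, 4 leucine-zipper partners and 1 gene of other ER stress branches. At 0.2 these were 50 and 6 genes, 0 members, 1 leucine-zipper partner and 0 genes of the other lists, and at 0.4 they were 13 and 1 genes, 0 members and 0 list genes. No variation between animals can be measured here.

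The GC and length correction called 0 members higher, with the replicate block or without it, and turned Ppp1r15a to -0.0506 with the block and -0.0514 without it. Leaving out anti-miR132-3p replicate 2 turned it to -0.0632, and leaving out replicate 1 gave 0.3007. The correction without the block gave 1050 genes higher and 1403 lower. At the lower fold threshold tried 6 members passed, at 2-fold 0, and with upper quartile scaling 2 passed 1.5-fold. Apart from fewer libraries, genes or an assumed spread by construction, the cause was not tested.

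Replicate numbers are shared only as numbers: same-numbered libraries deviated with a correlation of 0.013. A replicate block gave 1740 genes higher and 1437 lower, 1 member higher and 5 lower, with Chac1 added.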
